A study of Mus musculus with 9 samples.

Results

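The genes that copy DNA and carry cells from G1 into S phase were examined in 9 MPC clones, primary cells grown from pancreatic tumors of WTg mice. The 43 genes were chosen by symbol from what they are known to do, though with earlier results of these data known. Each was found among the 18049 genes of the deposited table. All 43 passed the filter on low genes, a mean of 10 normalized counts or more, which 14705 genes passed in all. They were grouped by role into 10 origin licensing genes (Orc1, Orc6, Cdc6, Cdt1 and Mcm2 to Mcm7), 6 helicase activation genes (Mcm10, Cdc45 and Gins1 to Gins4), 7 polymerase and primase genes (Pola1, Pola2, Prim1, Prim2, Pold1, Pole and Pole2), 7 genes of the sliding clamp, its loader, single-strand binding and lagging strand repair (Pcna, Rfc3, Rfc4, Rfc5, Rpa2, Fen1 and Lig1), 5 nucleotide supply genes (Rrm1, Rrm2, Tyms, Tk1 and Dut), 4 genes of chromatin assembly and histone mRNA (Uhrf1, Chaf1a, Chaf1b and Slbp) and 4 G1/S regulators (Ccne1, Ccne2, E2f1 and E2f2).

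All 9 clones belong to a single condition. WTg mice are EL1-Luc/EL1-Tag x CAG-Mettl3 mice, in which the elastase I promoter of pancreatic acinar cells drives luciferase and the large T antigen of SV40, and the CAG promoter, active in most tissues, drives Mettl3. Minced tumors were plated, attached cells were passaged, and each clone was picked as a colony with a cloning cylinder. The labels call the cells fibroblasts of the pancreas, give no age, and give the treatment as none, although a protocol field of the same labels names NMS-P937, a PLK1 inhibitor, at 80 nM for 24 h. The paper reports that no clones could be grown from mice with the EL1 transgenes alone, so no comparison with and without the Mettl3 transgene was possible. The column names carry 3 prefixes of unstated meaning, MET_EL with 1 clone (MET_EL_11A), Whe10 with 4 (Whe10_10A, Whe10_11A, Whe10_7A and Whe10_8A) and Whe3 with 4 (Whe3_11A, Whe3_12A, Whe3_5A and Whe3_7A). Values below are listed in this order. No source says which clones came from the same mouse, so p-values measure only the spread between these libraries.

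Before a cell can copy its DNA, the origin recognition complex, Cdc6 and Cdt1 load the MCM helicase onto origins in G1. Cdc45 and the GINS complex then switch the helicase on, and primase and the polymerases extend the new strands behind it. Many of these genes are transcribed together late in G1 by E2F factors, which the retinoblastoma protein Rb holds in check until cyclin-dependent kinases release them. The SV40 large T antigen carried by these mice is known to bind Rb and free E2F, but its RNA was not analysed here. Genes of mitosis, Plk1 among them, are transcribed later in the cycle, mostly through CHR elements and CCAAT boxes in their promoters.

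The letters that E2F factors are known to read stand near the start sites of many of these genes, and 5 examples are shown because they carry such words before or at the start of the gene. The sequences are from RefSeq (GRCm38.p6), 5′ to 3′ on the strand of the gene, and the capitals mark the E2F words.
Orc1, chr4:108579416-108579445, plus strand: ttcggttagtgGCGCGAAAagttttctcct
Cdc6, chr11:98908002-98908031, plus strand: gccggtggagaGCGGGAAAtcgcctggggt
Mcm5, chr8:75109336-75109377, plus strand: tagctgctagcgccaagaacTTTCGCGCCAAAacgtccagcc
Mcm6, chr1:128359735-128359835, minus strand: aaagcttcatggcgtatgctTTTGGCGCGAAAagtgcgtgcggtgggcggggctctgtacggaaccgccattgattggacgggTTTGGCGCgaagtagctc
Rfc3, chr5:151651191-151651238, minus strand: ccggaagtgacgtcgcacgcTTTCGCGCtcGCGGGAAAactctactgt
In Mcm5 and in the first stretch of capitals of Mcm6, 2 words on opposite strands overlap. The Orc1 and Cdc6 stretches lie before the start of a RefSeq transcript but within the span that RefSeq gives to the whole gene, the Mcm5 and Mcm6 stretches lie before that span, and the Rfc3 stretch crosses its edge.

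The words searched were TTTGGCGC, TTTCCCGC, TTTGCCGC and TTTCGCGC, on both strands of windows of 300 bases, from 250 before to 50 after each start site. A window was given for 36 of the 43 genes, and 15 of the 36 (41.7%) held a word, against 704 of all 27025 genes with a window (2.60%). These 15 were Orc1, Cdc6, Cdt1, Mcm3, Mcm5, Mcm6, Mcm7, Gins3, Pola1, Pold1, Pole2, Rfc3, Lig1, Uhrf1 and E2f2. Of the 9 licensing genes with a window, 7 held a word. Of 39 other replication genes, 9 of the 32 with a window held a word (28.1%), and of 26 mitosis genes 1 of 21 did (4.76%). The CHR words TTTGAA and TTCGAA were more frequent in the mitosis genes, being in 7 of the 36 genes (19.4%), in 14 of the 21 mitosis genes (66.7%) and in 21.7% of all genes. The CCAAT box, CCAAT on either strand, was in 21 of the 36 (58.3%), in 17 of the 21 mitosis genes (81.0%) and in 41.1% of all genes. Counts of words are descriptions of these windows, and a window without one says nothing about which factor acts on the gene.

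Sequencing gave 12198042 to 20453901 reads on genes per library, with MET_EL_11A the lowest and the next lowest at 16526379. Normalized counts are the reads multiplied by 1 factor per library, and 1 read was worth 1.26 to 2.19 of them. The replication genes were well above the depth limit of 3 reads, with 19 reads or more in every library, the fewest being those of Orc1. For the labelled cell type, all 9 fibroblast markers were above 3 reads in all 9 clones, and so were all 9 macrophage markers, among them Lyz2, Csf1r and Adgre1. The fibroblast markers summed to between 349213 and 932220 normalized counts per clone and the macrophage markers to between 507107 and 803084. Of the 5 epithelial markers, Cdh1 (8.91 to 152) and Krt19 (7.23 to 145) were above 3 reads in all 9 clones, Krt18 in 1 and Krt8 and Epcam in 0, with Epcam at 0 reads throughout. Since the libraries are bulk RNA, fewer cycling cells and less RNA of these genes per cell cannot be told apart. Levels are in normalized counts without correction for gene length, so they are compared between clones and not between genes.

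The replication genes had their low and high values mostly in the same clones. In Whe10_10A, 37 of the 43 genes had their lowest value and 43 of 43 were below their mean, where 11.9% of all tested genes had their lowest value. In Whe3_12A, 36 of the 43 had their highest value, against 14.6% of all tested genes. The median gene stood 0.55 below its 9-clone mean on the log2 scale in Whe10_10A and 0.50 above it in Whe3_12A. MET_EL_11A was the next highest clone with a median of 0.32, then Whe3_11A with 0.15 and Whe3_5A with 0.11, and the other 4 clones stood between -0.22 and -0.07. A single component held 84.6% of the variance of the 43 genes over the clones, compared with 34.1% for all tested genes, 74.7% for the 39 other replication genes and 96.3% for the 26 mitosis genes. These shares are descriptions, since genes measured in the same library share its depth and scaling.

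**Figure D1:**
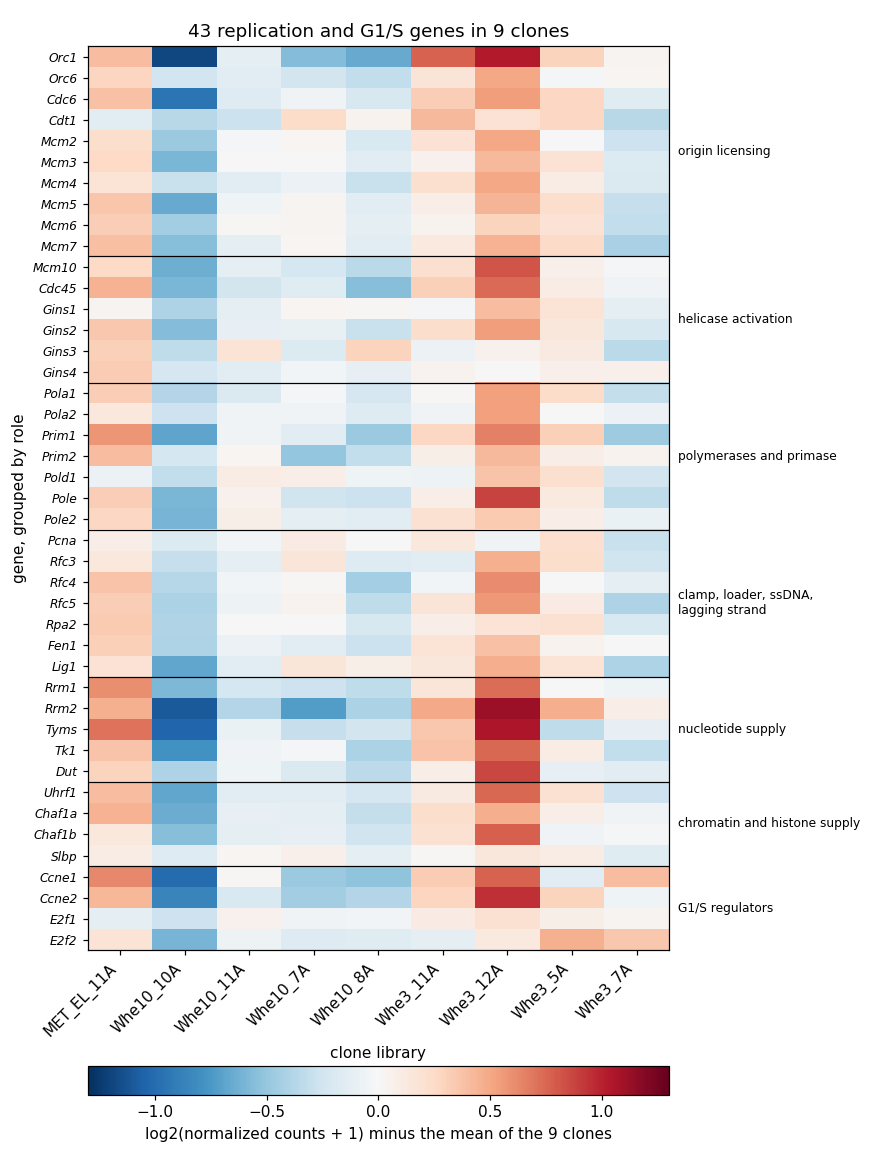
Each row is 1 of the 43 genes, grouped by role, and each column is 1 of the 9 clones. The color gives the log2 difference from the gene's mean over the 9 clones. The Whe10_10A column is blue for all 43 genes, and the Whe3_12A column holds the highest value of 36 of them.

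The spread of a gene between clones had a median SD of 0.33 on the log2 scale, against 0.25 for all tested genes, and 34 of the 43 lay above the latter. As a share of the mean, the SD had a median of 22.3%, from 8.30% for Slbp to 47.9% for Rrm2. The SD that counting alone would give had a median of 5.67%, and 40 of the 43 genes had more than 2 times their own counting SD.

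The nucleotide supply genes varied most, with a median SD of 0.47 on the log2 scale. Rrm2 (ENSMUSG00000020649, chr12:24708254-24714146 on GRCm38), the small subunit of ribonucleotide reductase that makes deoxynucleotides, was at 1311 normalized counts in MET_EL_11A, at 445, 729, 577 and 714 in the 4 Whe10 clones and at 1338, 2060.4, 1323 and 1010.2 in the 4 Whe3 clones. The Whe10 clones did not reach the lowest Whe3 clone, MET_EL_11A was within the range of the Whe3 clones, and the highest clone held 4.63 times the lowest. Rrm1, the large subunit of the same enzyme, was at 4725 normalized counts in MET_EL_11A, at 2081, 2655, 2581 and 2474 in the 4 Whe10 clones and at 3474, 5156, 3106 and 2997 in the 4 Whe3 clones. Its range of 2.48-fold was narrower than that of Rrm2, and the ratio of Rrm2 to Rrm1 ran from 0.214 in Whe10_10A to 0.426 in Whe3_5A. Tyms, thymidylate synthase, was at 661 normalized counts in MET_EL_11A, at 197, 380.2, 328 and 342 in the 4 Whe10 clones and at 515, 839.8, 322 and 377 in the 4 Whe3 clones. Here the groups overlapped, since Whe3_5A lay below Whe10_11A, and the top pair, Whe3_12A and MET_EL_11A, stood apart from the rest. Tk1, the thymidine kinase of S phase, ranged 2.91-fold and Dut, which removes dUTP, 2.4-fold, both from Whe10_10A to Whe3_12A.

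The 4 G1/S regulators were all lowest in Whe10_10A and 3 of them were highest in Whe3_12A, but the width of their ranges differed. A single component held 88.1% of their variance over the clones. Ccne1, cyclin E1, which activates Cdk2 for entry into S phase, was at 584 normalized counts in MET_EL_11A, at 188, 380.2, 269 and 262 in the 4 Whe10 clones and at 475, 645, 344 and 498 in the 4 Whe3 clones. Ccne2 (ENSMUSG00000028212, chr4:11190433-11204779), cyclin E2, was at 407 normalized counts in MET_EL_11A, at 165, 263, 219.9 and 231 in the 4 Whe10 clones and at 366, 584, 369 and 291 in the 4 Whe3 clones. For Ccne2 the lowest Whe3 clone was above the highest Whe10 clone, while for Ccne1 Whe3_5A lay under Whe10_11A. The ratio of Ccne1 to Ccne2 was 1.27 ± 0.232 (SD, n = 9), lowest in Whe3_5A and highest in Whe3_7A. E2f1, an activating E2F factor, was at 1175 normalized counts in MET_EL_11A, at 1065, 1330.1, 1241 and 1257 in the 4 Whe10 clones and at 1385, 1477, 1353 and 1317 in the 4 Whe3 clones. It differed only 1.39-fold between the lowest and the highest clone, and unlike most of these genes it was below its mean in MET_EL_11A. E2f2, another activating E2F, was at 451 normalized counts in MET_EL_11A, at 261, 380.2, 353 and 357 in the 4 Whe10 clones and at 363, 434, 547 and 507 in the 4 Whe3 clones. It was highest in Whe3_5A, not in Whe3_12A, and the ratio of E2f1 to E2f2 ranged from 2.47 in Whe3_5A to 4.08 in Whe10_10A.

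Among the licensing genes, Orc1 (ENSMUSG00000028587, chr4:108575705-108616030), the largest subunit of the origin recognition complex, varied most of all 43 genes on the log2 scale (SD 0.71). It was at 74.4 normalized counts in MET_EL_11A, at 24.2, 51.3, 37.6 and 35.3 in the 4 Whe10 clones and at 95.7, 116, 68.5 and 57.6 in the 4 Whe3 clones. The lowest clone rests on 19 reads, and counting alone gives an SD of 15.4% for this gene, against the 47.8% measured. Cdc6, which recruits the helicase to the origin, was at 274 normalized counts in MET_EL_11A, at 108, 187, 203 and 182 in the 4 Whe10 clones and at 261, 306, 253 and 188 in the 4 Whe3 clones. Cdt1, its partner in loading, was at 635 normalized counts in MET_EL_11A, at 549.7, 581, 833 and 727 in the 4 Whe10 clones and at 942, 802, 848 and 548 in the 4 Whe3 clones. Its order of clones was different, with Whe10_7A above the mean and MET_EL_11A below it, and the ratio of Cdt1 to Cdc6 ran from 2.32 in MET_EL_11A to 5.08 in Whe10_10A.

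The 6 subunits of the MCM helicase varied less relative to each other than each did alone. Their summed level ran from 5939 normalized counts in Whe10_10A to 11257 in Whe3_12A. Each subunit alone had an SD of 0.26 to 0.35 on the log2 scale, but the ratio of any 2 of them had an SD of only 0.07 to 0.18. The tightest pair was Mcm5 and Mcm7, with a ratio of 1.03 ± 0.0476 (SD, n = 9), and the loosest was Mcm4 and Mcm5, with a ratio of 0.876 ± 0.115. Mcm6 was at 2604 normalized counts in MET_EL_11A, at 1523, 2109, 2149 and 1923 in the 4 Whe10 clones and at 2164, 2552, 2384 and 1673 in the 4 Whe3 clones, the only subunit with its highest value in MET_EL_11A. Orc6, a further subunit of the origin recognition complex, ranged 1.77-fold.

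Among the genes that switch the helicase on, Mcm10, an initiation factor, was at 324 normalized counts in MET_EL_11A, at 174, 248, 232 and 212 in the 4 Whe10 clones and at 312, 476, 284 and 267 in the 4 Whe3 clones, and Cdc45, the helicase cofactor, at 311 normalized counts in MET_EL_11A, at 150.1, 192, 204 and 155 in the 4 Whe10 clones and at 282, 381, 243 and 220.1 in the 4 Whe3 clones. Both were lowest in Whe10_10A and highest in Whe3_12A. Of the 4 subunits of the GINS complex, Gins2 ranged 2.16-fold, Gins1 1.76-fold, Gins3 1.58-fold and Gins4 1.47-fold. The SD of Gins1 and that of Gins3 were under 2 times the SD that counting alone gives, and whether the subunits differ in spread was not tested. Gins4 was at 694 normalized counts in MET_EL_11A, at 473, 499.8, 541 and 515 in the 4 Whe10 clones and at 572, 553, 578 and 577 in the 4 Whe3 clones, and Gins3 was at 173 normalized counts in MET_EL_11A, at 111, 158, 123 and 170.3 in the 4 Whe10 clones and at 132, 145, 151 and 109 in the 4 Whe3 clones. Both were highest in MET_EL_11A, and Gins3 was lowest in Whe3_7A.

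The polymerase and primase genes all had their highest value in Whe3_12A. Prim1, the catalytic primase subunit, was at 344 normalized counts in MET_EL_11A, at 143, 224, 209.8 and 164 in the 4 Whe10 clones and at 278, 364, 285 and 167 in the 4 Whe3 clones, and Pole, the catalytic subunit of the leading strand polymerase epsilon, at 672 normalized counts in MET_EL_11A, at 358, 561, 450.0 and 444 in the 4 Whe10 clones and at 574, 989.6, 589 and 429.8 in the 4 Whe3 clones. Pold1, the catalytic subunit of polymerase delta, ranged only 1.61-fold, from 566 to 912 normalized counts. Pola1 and Pola2 of polymerase alpha ranged 1.89-fold and 1.75-fold, Prim2, the second primase subunit, 1.9-fold and Pole2, the second subunit of polymerase epsilon, 1.93-fold.

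At the fork, Pcna, the sliding clamp, was among the flattest genes. Pcna (ENSMUSG00000027342, chr2:132249286-132253180) was at 4116 normalized counts in MET_EL_11A, at 3433, 3784, 4187 and 3861 in the 4 Whe10 clones and at 4280.5, 3760.1, 4513 and 3174 in the 4 Whe3 clones. Whe3_12A, the top clone for most of the 43 genes, was below the mean of Pcna, and the highest clone was Whe3_5A. Rfc4 (2.09-fold) and Rfc5 (1.97-fold), which load the clamp, had wider ranges than Rfc3 (1.69-fold), a subunit of the same loader. Lig1, which seals Okazaki fragments, ranged 2.2-fold, Fen1, which trims them, 1.72-fold, and Rpa2, which coats single-stranded DNA, 1.66-fold.

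For chromatin, Uhrf1, which keeps DNA methylation through replication, was at 1516 normalized counts in MET_EL_11A, at 721, 1037, 1035 and 987 in the 4 Whe10 clones and at 1246, 1929, 1319 and 953 in the 4 Whe3 clones. Chaf1a and Chaf1b, 2 subunits of the factor that places histones on new DNA, ranged 2.18-fold and 2.53-fold. All 3 were lowest in Whe10_10A and highest in Whe3_12A. Slbp, which binds histone mRNA, had the smallest spread of all 43 genes (SD 0.12 on the log2 scale). It was at 1007 normalized counts in MET_EL_11A, at 837, 961, 989.7 and 862 in the 4 Whe10 clones and at 953, 1046, 1011 and 845 in the 4 Whe3 clones.

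**Figure D2:**
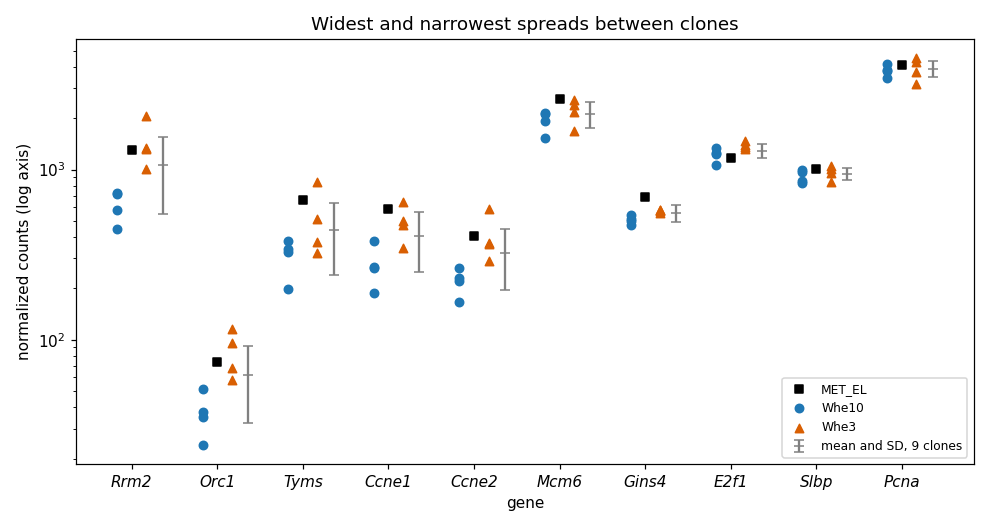
Normalized counts (log axis) of 10 genes, with 1 point per clone, colored by the prefix of the column name, and a grey bar for the mean and SD of the 9 clones. Rrm2, Orc1, Tyms, Ccne1 and Ccne2 spread 3.42-fold to 4.78-fold between the lowest and the highest clone, while Mcm6, Gins4, E2f1, Slbp and Pcna spread 1.25-fold to 1.71-fold.

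Since the study is about PLK1, the mitotic kinase that is regulated through the cell cycle, each gene was related to Plk1 over the 9 clones. Plk1 was at 685 normalized counts in MET_EL_11A, at 299, 525, 396 and 389.9 in the 4 Whe10 clones and at 705, 1228, 669 and 512 in the 4 Whe3 clones. With higher Plk1, 30 of the 43 replication genes were higher and 0 were lower at an adjusted p under 0.05 from limma, where 4.12% of all tested genes were called in the positive and 4.62% in the negative direction. The slope is the change in log2 level per log2 unit of Plk1, so that a slope of 1 means an equal fold change in the gene and in Plk1. Its median was 0.45 over the 43 genes and -0.02 over all tested genes, and all 43 slopes were positive.

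The steepest were Orc1 and Rrm2. Orc1 had a slope of 1.14 ± 0.15 (standard error, adjusted p = 0.00472, limma) and Rrm2 one of 1.13 ± 0.11 (adjusted p = 0.000866, limma). Ccne2 had the smallest adjusted p, with a slope of 0.90 ± 0.07 (adjusted p = 0.0004, limma), followed by Rrm2 and by Mcm10 with 0.68 ± 0.07 (adjusted p = 0.00109, limma). Tyms followed at 0.92 ± 0.16 (adjusted p = 0.0159) and Ccne1 at 0.86 ± 0.16 (adjusted p = 0.0198). All 5 nucleotide supply genes were called, with slopes of 0.59 for Dut to 1.13 for Rrm2.

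By role, the calls were 8 of 10 for licensing, 3 of 6 for helicase activation, 6 of 7 for polymerases and primase, 3 of 7 for the clamp, loader and lagging strand, 3 of 4 for chromatin and 2 of 4 for the G1/S regulators. In the licensing group, Cdc6 had a slope of 0.66 ± 0.13 (adjusted p = 0.0214), and the called MCM subunits lay between 0.41 for Mcm4 and 0.48 for Mcm5. The called helicase genes were Cdc45 (0.70), Mcm10 and Gins2 (0.54). Of the polymerase genes, Prim1 (0.72) and Pole (0.69) were steepest and Pold1 was the one not called. Rfc5 (0.48), Rfc4 (0.47) and Fen1 (0.41) were called at the fork, and Uhrf1 (0.65), Chaf1b (0.58) and Chaf1a (0.55) among the chromatin genes.

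The 13 genes not called had slopes of 0.08 to 0.43. They were Lig1, Mcm6, E2f2, Rfc3, Gins1, Rpa2, Pold1, Cdt1, E2f1, Slbp, Gins3, Gins4 and Pcna. Pcna had the smallest slope, 0.08 ± 0.09 (adjusted p = 0.603, limma), then Gins4 with 0.14 ± 0.09 (adjusted p = 0.309). E2f1 had a slope of 0.18 ± 0.06 (adjusted p = 0.0852) and E2f2 one of 0.33 ± 0.15 (adjusted p = 0.175). An adjusted p above 0.05 does not show that these genes stayed level. E2F words were in 8 of the 25 called genes with a window (32.0%) and in 7 of the 11 that were not called (63.6%), a description without a test.

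**Figure D3:**
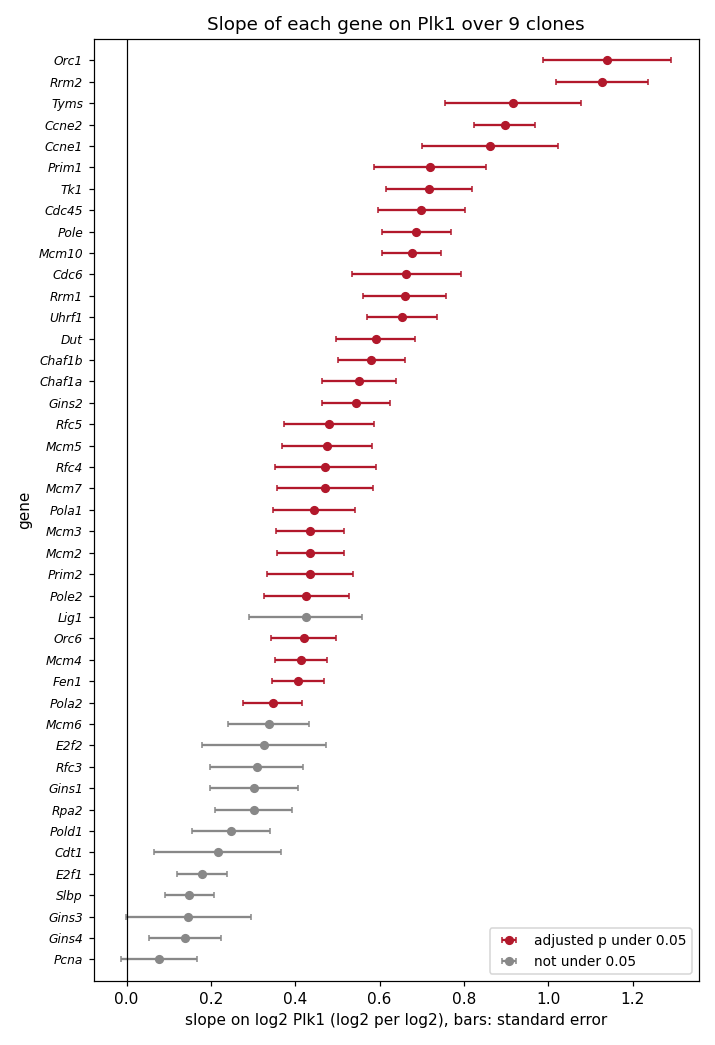
Slope of each of the 43 genes on log2 Plk1 over the 9 clones (log2 per log2), with its standard error, ordered by size. All 43 lie above 0, from 0.08 for Pcna to 1.14 for Orc1, and the 30 in red have an adjusted p under 0.05.

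**Figure D4:**
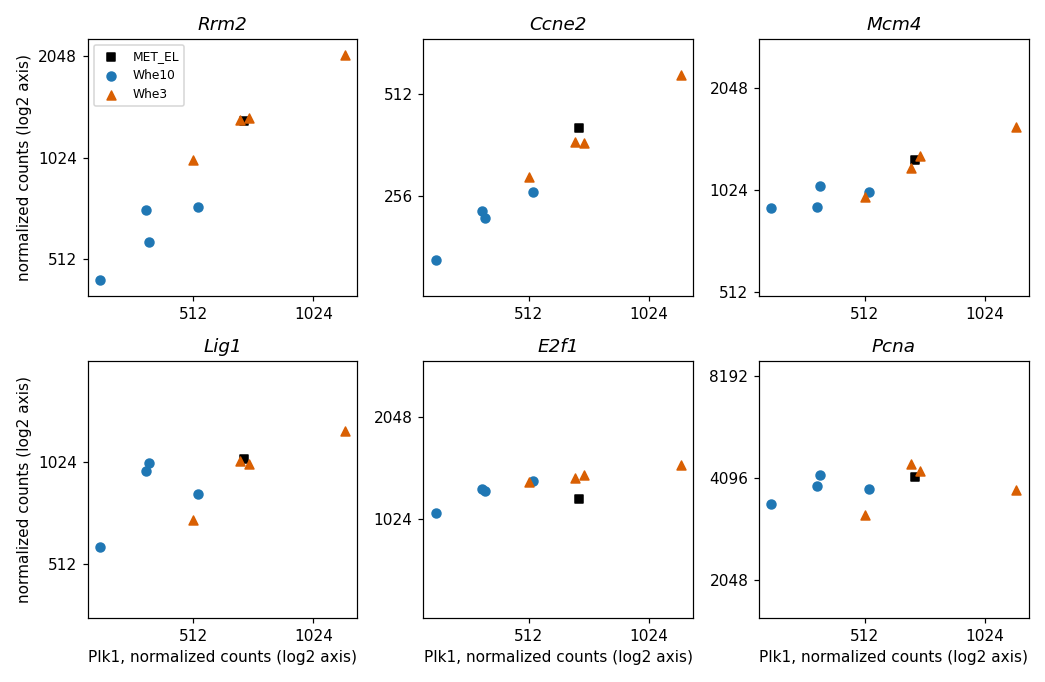
Normalized counts of 6 genes (y axis, log2) against those of Plk1 (x axis, log2), with 1 point per clone and an axis of the same fold range in every panel. Rrm2 and Ccne2 climb along the whole range of Plk1, and Mcm4 climbs less. Lig1, E2f1 and Pcna were not called. Of these, Lig1 rises with scatter between the clones, and E2f1 and Pcna take a shallow course.

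The relation leaned on the clones at the ends of the Plk1 range. Without Whe3_12A, the clone with the highest Plk1, 5 of the 43 genes were called (Orc1, Mcm10, Rrm2, Chaf1a and Ccne2), and 86 genes in all. Without Whe10_10A, the lowest, 10 were called and 158 in all. With the 2 clones of most extreme Plk1 relative to the median left out, 0 were called and 0 in all by limma. In that fit, 22 of the 43 and 1686 of all 14704 tested genes had an unadjusted p under 0.05. The median slope hardly moved, to 0.48, 0.45 and 0.45, and all 43 slopes stayed positive in each of these 3 fits. Orc1, Mcm10, Rrm2 and Ccne2 were called whichever single clone was left out. With the prefix as a covariate over the 8 Whe10 and Whe3 clones, 5 were called (Pole, Rrm1, Rrm2, Uhrf1 and Ccne2) and 102 genes in all, with a median slope of 0.56.

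Cell type markers moved with Plk1 too. Of the 9 macrophage markers 4 fell with Plk1, Adgre1 (-0.56), C1qb (-0.43), C1qc (-0.42) and Cd68 (-0.38), and 0 rose. Of the 9 fibroblast markers Col1a1 rose (slope 0.94) and 0 fell. Dcn, another fibroblast marker, had a slope of -1.52 (adjusted p = 0.071, limma, not called) and was at 217 normalized counts in Whe3_12A and 2066 in Whe10_10A. The epithelial marker Krt19 had a slope of 1.89 (adjusted p = 0.0825, limma, not called). The summed fibroblast markers were highest in Whe3_12A and MET_EL_11A, the 2 top clones for the replication genes, at 932220 and 754613 normalized counts, while Whe10_7A had the lowest sum, 349213. The summed macrophage markers were lowest in Whe3_12A, at 507107, and highest in Whe3_7A, at 803084. Most of that sum was Lyz2, at 341916 and 577311 in the same clones. Of the 9 macrophage markers, 5 were highest in Whe10_7A and 1, Lyz2, in Whe3_7A. Fn1 was the largest part of the fibroblast sum, with a mean of 276558. Both sums, used as covariates below, therefore weigh mainly their most abundant markers. With the summed fibroblast markers as a covariate, 0 of the 43 genes and 18 genes in all were called, with a median slope of 0.54. In that fit, 36 of the 43 and 1232 of all 14704 tested genes had an unadjusted p under 0.05. With the summed macrophage markers, 4 of the 43 and 69 genes in all were called, with a median slope of 0.46. The part of the cell types in the relation was not tested further.

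Lists of neighbouring genes moved with Plk1 to differing extents. The 26 mitosis genes were all called upward, with a median slope of 0.92, steeper than the 0.45 of the replication genes, though Plk1 is itself a gene of mitosis and shares its timing. Of the 39 other replication genes, 16 were called upward and 0 downward, with a median slope of 0.28. Among them were Hells (0.79), a chromatin remodeler, Clspn (0.81), a fork checkpoint adaptor, and Cdc7 (0.78) and Dbf4 (0.71), the kinase and its subunit that fire origins. Of the 28 Rb and E2F pathway genes, 6 were called upward, namely Ccna2 (0.999), E2f8 (0.87), E2f7 (0.76), Cdkn2d (0.47), Tfdp1 (0.39) and Rbl1 (0.30), and Rbl2 was called downward (-0.29). E2f7 and E2f8 are repressors of E2F targets, Ccna2 is the cyclin of S phase, and Rbl1 and Rbl2 are relatives of Rb. Their median slope over the list was 0.09, beside the -0.02 of all genes.

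**Figure D5:**
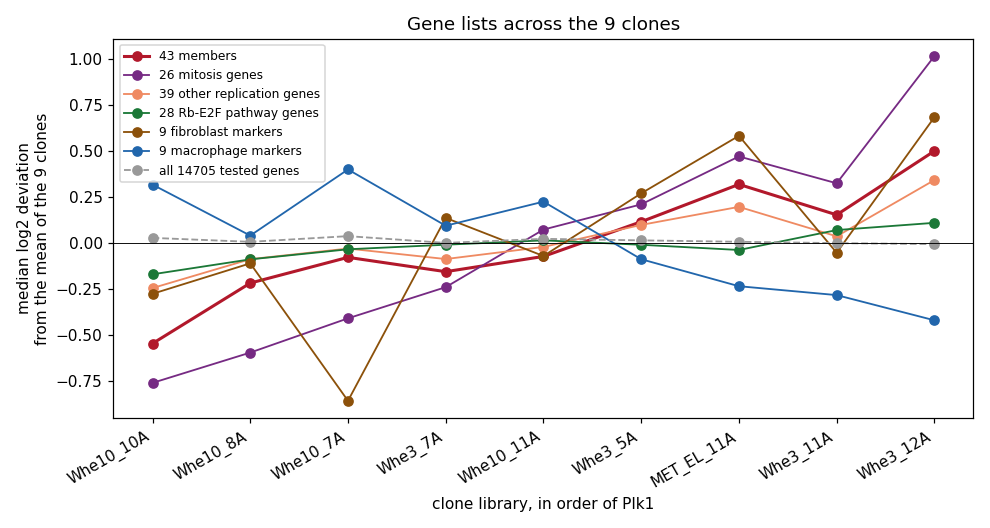
Median log2 deviation from the mean of the 9 clones for each gene list, with the clones in order of Plk1. The 43 replication genes run from -0.55 in Whe10_10A to 0.50 in Whe3_12A, the mitosis genes over a wider range of -0.76 to 1.01, and all tested genes stay near 0. The median of the fibroblast markers is high in Whe3_12A and MET_EL_11A, and that of the macrophage markers is low in Whe3_12A.

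The 2 prefixes with 4 clones each were compared as a check for a batch, not as conditions. Limma called 0 of the 43 replication genes between Whe3 and Whe10, against 0.116% of all tested genes in the positive and 0.0816% in the negative direction. At an unadjusted p under 0.05, 18 of the 43 (41.9%) differed, all higher in Whe3. Of all 14705 tested genes, 20.1% differed, 1303 of them higher in Whe3 and 1660 lower. Limma's voom on recovered reads also called 0 of the 43. The difference was positive for 42 of the 43, with a median of 0.35 on the log2 scale, against -0.02 over all genes. Rrm2 differed by 1.19 ± 0.23 (standard error, adjusted p = 0.106, limma), Orc1 by 1.16 ± 0.30 (adjusted p = 0.149), Ccne1 by 0.84 ± 0.24 (adjusted p = 0.158) and Ccne2 by 0.84 ± 0.22 (adjusted p = 0.15). Gins3 was the one gene with a negative difference, -0.05 ± 0.18.

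For 12 of the 43 genes, every Whe3 clone was above every Whe10 clone, and for 0 every Whe3 clone was below. Over all tested genes, 4.56% had all Whe3 clones above and 5.74% all below. The 12 were Orc1, Orc6, Mcm10, Cdc45, Gins4, Prim2, Fen1, Rrm1, Rrm2, Chaf1a, Chaf1b and Ccne2. They come from all 7 roles, with Pcna, Slbp, E2f1 and the 6 MCM subunits not among them. Xist was at 29664 to 32912 normalized counts in the Whe10 clones and at 8.39 or less in the other 5, while the Y-linked Ddx3y was at 0 in the Whe10 clones and at 2376 or more in the other 5. The prefix and the sex of the mouse therefore cannot be told apart. Only Pola1 among the 43 genes lies on chromosome X.

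The clones carry a Mettl3 transgene, and each gene was related to Mettl3 as well. Mettl3 was at 2184 normalized counts in MET_EL_11A, at 546, 621, 611 and 515 in the 4 Whe10 clones and at 468, 490.1, 479.8 and 502 in the 4 Whe3 clones. Limma called 0 of the 43 replication genes with Mettl3, against 0.360% of all tested genes in the positive and 2.26% in the negative direction. At an unadjusted p under 0.05, 1 of the 43 passed (2.33%), against 15.0% of all tested genes. It was Gins4, which with a slope of 0.15 ± 0.07 (adjusted p = 0.334, limma) had the smallest p, and voom called 0 of the 43. The median slope was 0.13, from -0.11 for Cdt1 to 0.31 for Tyms (0.31 ± 0.28, adjusted p = 0.639). For the nucleotide supply genes the median was 0.15 and for the licensing genes 0.11. MET_EL_11A, at 2184 normalized counts, was the one clone far above the 468 to 621 of the others. The sign of the median depended on the fit. Among the other 8 clones, Mettl3 did not overlap between the prefixes, at 515 to 621 in Whe10 and 468 to 502 in Whe3. A slope over these 8 clones without the prefix therefore mixes Mettl3 with the prefix, and 42 of the 43 genes were higher in Whe3. Without MET_EL_11A the median slope was -0.81 and limma called 0 of all genes, with 1 of the 43 and 1634 of all genes at an unadjusted p under 0.05. In the same 8 clones with the prefix as a covariate the median slope was 0.76, with 40 of the 43 slopes positive. Limma again called 0 of all genes, with 0 of the 43 and 358 of all genes at an unadjusted p under 0.05. In MET_EL_11A, 40 of the 43 replication genes were above their mean, beside 7442 of all 14705 tested genes. Only 4 of the 43 had their highest value there, Mcm6, Gins3, Gins4 and Rpa2, against 19.9% of all tested genes. Since MET_EL_11A is the only clone of its prefix and has the fewest reads, its Mettl3 level, its prefix and its depth cannot be told apart.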

How the data were processed

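RNA of 9 MPC clones of WTg mice was sequenced as stranded mRNA libraries. The authors deposited log2 values of scaled counts for 18049 genes, and per the labels FastQC 0.11.9, STAR 2.7.10, RSEM 1.3.3 and GRCm38 were used, without the role of each. The lowest deposited log2 value is that of an offset of 4, so normalized counts were taken as the value with the log2 undone and 4 subtracted. Reads were recovered from the spacing of low values, and 100% of values under 1000 reads were whole within 0.1 read. Intervals of counting and the limit of 3 reads cover counting error only. The table also holds 6 columns of libraries from other series, which were not used, so the clones were not compared with MEFs here. No 2 libraries were duplicates, since the chi-square between the closest pair was 22.6 for each degree of freedom.

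The 43 genes, the lists, the motif words and the rule for named genes (all 43 genes, with full values for those of the largest and smallest spread or slope and those with a clone far from the others) were chosen with earlier results of these data known. Genes whose mean reached 10 normalized counts were fitted with limma 3.58.1 (lmFit, and eBayes with a trend) in R 4.3.3 on log2(normalized counts + 1), with Benjamini-Hochberg adjustment over all genes tested and a threshold of 0.05. The slope on log2 Plk1 and on log2 Mettl3 used 9 clones, each without that gene itself, and the difference between prefixes used 8. Alternatives were another pseudocount, filter, scaling, eBayes without a trend, voom, each clone left out, the 2 farthest clones left out and the prefix as a covariate. The marker covariates and the block of clone codes were chosen after seeing the data. Promoter windows and gene positions came from RefSeq (GRCm38.p6). Tables and plots were made in Python 3.11.15 (matplotlib 3.10.9, scipy 1.17.1, pandas 2.3.3 and numpy 2.4.6). No exonic lengths were used, so levels were not compared between genes.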

Additional observations from a re-analysis of the deposited data

Results flagged for a closer look

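For 6 of the 43 genes, 1 clone stood far from the other 8, meaning that its gap to the nearest clone exceeded Dixon's critical share of the whole range at 95%. Chance gives about 1 in 20, or 2.15 of 43, and these genes are not independent. Whe3_12A was the high clone for 5 of them, with ratios of gap to range of 0.567 for Pola2, 0.566 for Dut, 0.55 for Chaf1b, 0.504 for Mcm10 and 0.503 for Pole. Dut was at 706 normalized counts in Whe3_12A and at 473 in the next clone, and Pola2 at 810.1 and 613. The same clone was far above the others for Plk1, with a ratio of 0.563. Gins4 stood apart in MET_EL_11A, with a ratio of 0.526, at 694 normalized counts and 578 in the next clone. Mettl3 stood apart in the same clone, with a ratio of 0.911. The ratios were taken on normalized counts without a log. On log2(normalized counts + 1), of these 8 only Pola2 (0.497) and Mettl3 (0.817) were still past the critical value, and Plk1 was at 0.393.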

How the results depend on the processing

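GEO's labels give the 9 clones 1 group, but the codes 7A and 11A occur in the column names under both Whe10 and Whe3. No source says that they pair the clones, and the deviations of the same-coded clones from their prefix means correlated at -0.032 (7A) and -0.037 (11A), so they were taken to share only a code. An alternative chosen after seeing the data used that code as a replicate block and kept only the 4 clones coded 7A or 11A. In it, limma called 0 of the 43 genes and 0 of all genes between the prefixes. At an unadjusted p under 0.05, 1 of the 43 and 1078 of all genes differed, and the median difference was 0.07. The main fit, with all 8 clones of these prefixes and no block, called 29 of all genes and had a median difference of 0.35. These fits differ in their clones as well as in the block, so what the block alone changes was not tested. Under the 8 alternatives of pseudocount, filter, scaling, trend and voom, 28 to 30 of the 43 genes were called with Plk1, 0 with the prefix and 0 with Mettl3, and the median slope on Plk1 stayed between 0.44 and 0.45. Over all genes, eBayes without a trend called 839 genes with Plk1 in place of 1285. For Mettl3 a filter at a mean of 50 called 238 genes and voom 61, in place of 386.

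Leaving out 1 clone at a time gave 5 to 31 called replication genes with Plk1 and 86 to 1806 of all genes, 9 to 259 of all genes for the prefix against 29 with all 8 clones, and 0 to 494 of all genes for Mettl3. The fewest with Plk1 came without Whe3_12A and the next fewest, 10, without Whe10_10A. For the prefix, the 259 came without Whe3_5A, and for Mettl3 the 0 came without MET_EL_11A, where the median slope on Mettl3 reversed to -0.81, in a range of -0.81 to 0.19 over the clones left out. Without the 2 clones farthest from the median, 0 replication genes and 0 of all genes were called with Plk1, 0 of all genes with Mettl3, and the median slope on Mettl3 reversed to -1.22. With the prefix as a covariate, 5 replication genes and 102 of all genes were called with Plk1 and 0 of all genes with Mettl3, where the median slope was 0.76, and the slope of Gins4 on Plk1 reversed to -0.012. With the summed fibroblast markers, 0 replication genes and 18 of all genes were called with Plk1, and with the summed macrophage markers 4 and 69. In the latter fit the slopes of Cdt1 (-0.094), Gins3 (-0.0052) and Pcna (-0.12) on Plk1 reversed. Each of these fits has fewer clones or fewer residual degrees of freedom than the main fit. The causes of the changed counts and of the reversed signs were not tested.

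Over all alternatives, 714 of the single-gene slopes on Plk1 kept their direction and their side of the threshold, 183 lost the call, 2 gained one and 4 changed sign. The 129 mean levels of single genes under rescaling or without MET_EL_11A each moved by under 1 SD over the clones. Rescaling by the upper quartile changed a library by at most 0.07 on the log2 scale. Leaving out 1 of 9 clones cannot move a mean by 1 SD, and factors this small could hardly do so. The check of mean levels therefore could not have failed and says nothing about robustness. Depth limits the values of Orc1 most. With 9 clones of a single condition, a slope describes these clones and not an effect of Plk1 or Mettl3.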

Other observations

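Genes of the G1/S transition and S phase did not all keep their proportions. The ratio of Rrm2 to Pcna ran from 0.130 in Whe10_10A to 0.548 in Whe3_12A, and that of Rrm2 to E2f1 from 0.418 to 1.40 in the same pair of clones, since E2f1 and Pcna varied 1.39-fold and 1.42-fold and Rrm2 4.63-fold. Among the Rb and E2F pathway genes outside the 43, 21 of 28 were not called with Plk1. Of these, 4 that act before S phase, named after their values were seen, had slopes of -0.25 for Rb1, -0.03 for Ccnd1, 0.05 for Cdkn1a and 0.40 for Cdk4 (adjusted p from limma of 0.0831, 0.919, 0.815 and 0.0669). The acinar genes that mark the cell type in which the elastase promoter is active summed to 2415 normalized counts in Whe3_5A and to 396 or less in the other 8 clones. Among them, Cela1 was not higher in Whe3_5A (288) than in Whe10_10A (293) or Whe10_11A (291). For each of the other acinar genes, such as Amy2a5 (51.5) and Ctrb1 (43.7), Whe3_12A was the next highest clone. Whe3_5A was also the clone with the highest Pcna and E2f2, and Whe3_12A the top clone for most of the 43 genes. Whether these are related was not tested.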
